A study of Mus musculus with 6 samples.

Results

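Tumor neutrophils were examined in 3 single-cell RNA libraries of subcutaneous pancreatic tumors from mice that had received IL10/2-Trikine, mono-IL10 or PBS. A droplet barcode counted as a neutrophil when it had at least 500 detected genes, at most 10% mitochondrial transcripts and 1 dominant hashtag antibody (at least 2/3 of its antibody counts), together with at least 10 unique molecular identifiers (UMIs, counted RNA molecules) of S100a8 plus S100a9 and at least 1 UMI of Csf3r. Barcodes with more than 3 UMIs of the macrophage genes C1qa, C1qb and C1qc, with more than 3 UMIs of the keratins Krt8 and Krt18, or with any UMI of Cd3e or Ncr1 were left out. This rule kept 1228 of 67420 barcodes that passed the quality and hashtag criteria, out of 130444 deposited barcodes. The mono-IL10 library held 586 of them, the PBS library 426 and the IL10/2-Trikine library 216. The cells were thus chosen by measured UMIs of S100a8, S100a9, Csf3r and the excluded genes, whose levels are given as a description. They stayed in the fits across all genes, and no test of them is read here.

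Neutrophils are short-lived granulocytes made in the bone marrow, released under the control of the growth factor receptor encoded by Csf3r and drawn into tissue through the chemokine receptor encoded by Cxcr2. S100a8 and S100a9 encode the subunits of calprotectin, the most abundant protein of their cytosol. They carry little RNA, and in tumors they are known as sources of interleukin-1 and CXC chemokines that can either restrain or favor tumor growth. Interleukin-10 is known in myeloid cells for acting through STAT3 to dampen inflammatory genes.

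The mice were C57BL/6 animals bearing the KPC-derived line 6694c2vTRP1 under the skin, so that all groups shared the tumor and differed in the treatment. They had received PBS, 26 µg per mouse of mono-IL10 (a monomeric interleukin-10) or 30.6 µg per mouse of IL10/2-Trikine (the same cytokine carrying a second module that binds the interleukin-2 receptor β chain without signaling by itself), in 2 doses from day 8, and tumors were taken on day 14. Cells enriched for CD45 were labeled with 1 of 5 hashtags per mouse and pooled into 1 library per treatment. Treatment and library therefore cannot be told apart in any comparison, and a p-value measures only the spread between mice inside these libraries.

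The libraries held 364814102 to 515236552 gene UMIs. Neutrophils had median counts of 2344 UMIs and 1093 genes in PBS, 2121.5 UMIs and 906.5 genes in mono-IL10, and 1410 UMIs and 787.5 genes in IL10/2-Trikine, so depth per cell moved with the treatment. The share of neutrophils with under 1000 detected genes was 44.1%, 57.7% and 63.9% in the same order. Between libraries, 1586 barcode sequences recurred, 31 neutrophils had a barcode that was also present in another library, and no such pair was a neutrophil in both. Just inside the threshold, 38, 36 and 13 neutrophils had 10 to 12 UMIs of S100a8 plus S100a9, and just outside it 26, 32 and 18 barcodes had 7 to 9. There were 131, 170 and 93 neutrophils with exactly 1 UMI of Csf3r, and 138, 161 and 141 barcodes missed the rule only because Csf3r was at 0. No doublet caller was run, so that droplets with RNA of 2 cells were removed only by the hashtag and marker limits. Among barcodes that met the S100a8, S100a9 and Csf3r criteria, C1q genes were over the limit in 1616 of 2285 in PBS, 755 of 1599 in mono-IL10 and 703 of 1192 in IL10/2-Trikine.

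The label was checked with Cxcr2, which the rule did not use. At least 1 UMI of Cxcr2 was found in 46.7% of the PBS, 54.3% of the mono-IL10 and 39.8% of the IL10/2-Trikine neutrophils. In tumor epithelial cells, which should lack it, the share was 1.61%, 1.91% and 1.30% at median depths of 27472, 35611.5 and 10922 UMIs, and in macrophages 2.61%, 1.89% and 1.68%. Cxcr2 was thus seen far more often in the neutrophils than the background of free RNA, at a lower depth.

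The neutrophils were not uniform. A k-means division into 4 groups gave the following description, in which the leading genes define the groups and are not results. Group 1 (369 cells, 30.0%) was led by Retnlg, Wfdc21, Fpr1, Stfa2l1, Slfn4 and Lcn2, genes of circulating and freshly recruited neutrophils, and S100a8 plus S100a9 made up 6.56% of its UMIs. Group 2 (295 cells) was led by Ltc4s, Igfbp6, Siglecf and Gngt2. Siglecf, a sialic acid receptor known from eosinophils and from tumor neutrophils, reached 198 CPM (UMI counts scaled to the same total) there against 55.6 CPM in the other neutrophils. The eosinophil granule gene Epx was at 0 in every mouse, but Ccr3 had counts in all 3 treatments and Prg2 in PBS. Over all neutrophils, 9 eosinophil, basophil and mast cell markers summed to 0 to 30.5 CPM in PBS. These sums were 0 to 36.9 CPM in mono-IL10 and 39.9 to 51.1 CPM in IL10/2-Trikine. Group 4 (277 cells) was led by the inflammatory genes Ccl4, Ccl3, Il23a, Tnf, Il1a, Acod1, Icam1, Clec4e and Cxcl2, and Cxcr2 was detected in 60.3% of its cells.

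Group 3 went against the label. Its 287 cells were led by the collagen genes Col1a1, Col3a1 and Col1a2, by Sparc, Tnc and Postn, and by the macrophage elastase Mmp12 in mean level, but for each of these genes most of the cells had no UMI. Col1a1 was detected in 11.5% of them, Col3a1 in 13.9%, Sparc in 21.6% and Mmp12 in 34.5%. The group had a median of 5485 UMIs and 2122 genes against 1277 to 2559 UMIs in the other groups. S100a8 plus S100a9 made up 0.904% of the UMIs there, although Cxcr2 was still detected in 42.9% of the cells. Markers of dendritic cells (Ccr7, Fscn1) and of monocytes and macrophages (Ccr2, Fn1, Mrc1) were also found in this group. Because its cells were large, they held 52.4% of all neutrophil UMIs, and unevenly so. Per mouse, their part of the neutrophil UMIs was 87.8%, 49.3%, 90.3%, 71.6% and 64.4% in PBS mice 1 to 5 and 39.6%, 22.5%, 56.6%, 61.4% and 42.6% in mono-IL10 mice 1 to 5. In IL10/2-Trikine mice 1, 2 and 5 it was 67.7%, 49.9% and 66.7%. The mean of each library had been removed per gene before the division, so group 3 was set relative to each cell's own library. These values are therefore not compared between treatments.

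**Figure D1:**
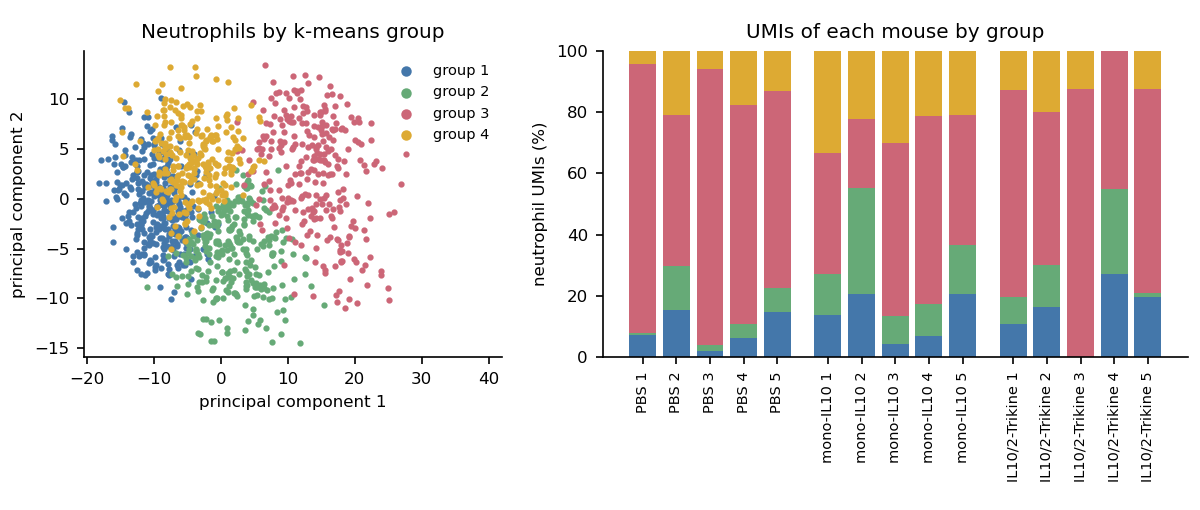
Left, each point is 1 of 1228 neutrophils placed by the first and second principal component of log-normalized expression (no unit, library mean removed per gene) and colored by k-means group. Right, stacked bars give the percent of each mouse's neutrophil UMIs that came from each group; group 3 made up 52.4% of all neutrophil UMIs, and 90.3% of those of PBS mouse 3. IL10/2-Trikine mice 3 and 4 had 2 and 3 neutrophils.

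Because group 3 held so large a part of the UMIs, many gene-level results are set beside up to 3 alternatives that were added after the data had been seen. The first kept the 781 neutrophils with 0 UMIs of 31 marker genes of stroma and endothelium, dendritic cells, T and NK cells, and monocytes (432 from mono-IL10, 227 from PBS, 122 from IL10/2-Trikine), called marker-free here. The second kept the 951 with under 1500 genes. In the third, every neutrophil was thinned to 600 UMIs before counts were summed, so that large cells weighed no more than small ones. PBS mouse 3 kept 6 cells in the first and 5 in the second, under the minimum of 10 cells, so both of these fits had 4 PBS mice. The 31 marker genes include none of the 11 macrophage or 10 tumor epithelial markers used here. In the marker-free cells the macrophage markers summed to medians of 1416, 951 and 1267 CPM in PBS, mono-IL10 and IL10/2-Trikine (PBS mouse 3 included). Over all neutrophils these medians were 1969.5, 1133 and 1261 CPM, so marker-free does not mean free of macrophage RNA.

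In level, the neutrophils were dominated by a few secreted and cytosolic products. Per mouse, CPM were taken from the UMIs summed over its neutrophils, for the 13 mice with at least 10 of them (5 PBS, 5 mono-IL10 and 3 IL10/2-Trikine), and being UMI counts of 5' ends they need no correction for length. Cxcl2, a chemokine that attracts further neutrophils, had the highest mean of the listed genes at 20416 CPM, with mice between 9541 and 32743 CPM. S100a9 (13322 CPM) and S100a8 (11104 CPM) followed, against 33.1 and 34.9 CPM in macrophages. Macrophages had been chosen with under 10 UMIs of S100a8 plus S100a9, so this contrast was fixed by the choice of both classes. The neutrophil levels given here are over all neutrophils, group 3 included. In the marker-free cells the 18 identity genes, S100a8 and S100a9 among them, summed to a median of 60222 CPM in PBS, 65519 CPM in mono-IL10 and 72043 CPM in IL10/2-Trikine, against 24706, 45954 and 33580 CPM over all neutrophils. Il1b, the precursor of interleukin-1β, had a mean of 10988 CPM, against 4786 CPM in macrophages, whose means were taken over all 15 mice.

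Among neutrophil genes outside the rule, G0s2, an inhibitor of lipolysis, had a mean of 2601 CPM against 32.3 CPM in macrophages. Hdc, which makes histamine, reached 1129 CPM against 31.4 CPM, and Il1r2, a decoy receptor for interleukin-1, 2540 CPM against 329 CPM. Clec4d, a C-type lectin receptor, had 1419 CPM against 289 CPM. Of genes of immature granules, Camp, Ngp, Elane, Mpo and Ctsg were at 0 to 7.71 CPM in each of the 4 groups, and Ltf had a mean of 25.8 CPM with mice between 0 and 53.0 CPM. Apoe (905 CPM against 12954 CPM in macrophages) and Cd74 (2248 CPM against 4974 CPM) were lower in the neutrophils than in macrophages. In the marker-free cells Apoe had means of 681 to 1123 CPM and Cd74 of 841 to 1933 CPM in the 3 treatments.

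**Figure D2:**
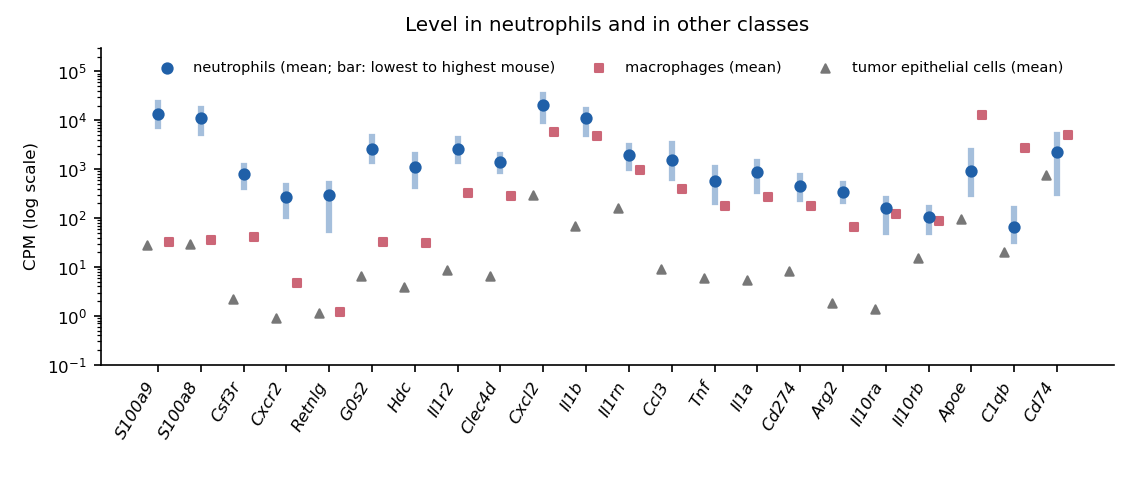
Level of 22 genes in CPM on a log scale; blue points are means over 13 mice for neutrophils with a bar from the lowest to the highest mouse, red squares are mean values in macrophages and grey triangles in tumor epithelial cells. Cxcl2 (20416 CPM), S100a9 and S100a8 are highest in neutrophils, and Apoe is highest in macrophages. For S100a8 and S100a9 the contrast with macrophages was fixed by the choice of the cells.

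The first comparison asked what share of each mouse's recovered barcodes were neutrophils under each treatment. The cells had been enriched for CD45, so this share does not measure how many of a tumor's cells were neutrophils. Neutrophils made up 0.942%, 3.17%, 1.02%, 1.62% and 1.98% of the singlet barcodes of PBS mice 1 to 5. In mono-IL10 mice 1 to 5 they made up 3.60%, 5.51%, 1.58%, 1.42% and 2.41%. In IL10/2-Trikine mice 1 to 5 the shares were 0.906%, 1.02%, 0.131%, 0.173% and 0.486%. Of the IL10/2-Trikine mice, 4 of 5 lay below every PBS mouse and all 5 lay below every mono-IL10 mouse, whereas mono-IL10 and PBS overlapped. Mice 3 and 4 of the IL10/2-Trikine group rested on 2 of 1526 and 3 of 1737 barcodes, with exact Clopper-Pearson 95% intervals of 0.0159% to 0.473% and 0.0356% to 0.504%, which cover counting error only.

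The mean share was 0.544% ± 0.410 (SD, n = 5) in IL10/2-Trikine, 1.74% ± 0.904 (n = 5) in PBS and 2.91% ± 1.69 (n = 5) in mono-IL10. IL10/2-Trikine was lower than PBS, with a difference of -1.20 percentage points (exact two-sided permutation test, p = 0.0238, adjusted p = 0.0357 over 3 comparisons) and lower than mono-IL10, with -2.36 points (exact permutation p = 0.00794, adjusted p = 0.0238). The latter p is the smallest that the 252 splits of 5 against 5 mice allow. Mono-IL10 and PBS differed by 1.16 points (exact permutation p = 0.222). Both significant comparisons use the same IL10/2-Trikine mice, and the direction was already known from earlier results of these data.

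The call against PBS depended on the choice of cells. It held, with all 5 IL10/2-Trikine mice below every PBS mouse, at a gene minimum of 1000 (0.196 times the PBS share), at 20 UMIs of S100a8 plus S100a9 with 2 of Csf3r (0.277 times) and with up to 10 C1q UMIs allowed (0.342 times; exact permutation, adjusted p = 0.0119 in each of them). With the marker-free neutrophils it was -0.53 points (0.376 times the PBS share, exact permutation, adjusted p = 0.143) and with those under 1500 genes -0.62 points (0.41 times, exact permutation, adjusted p = 0.175). The difference from mono-IL10 kept its adjusted p of 0.0238 in both, at -1.81 and -2.02 points. It passed neither at a gene minimum of 200 nor under a stricter hashtag rule (exact permutation, adjusted p = 0.0714 in both), nor without IL10/2-Trikine mouse 1, 3, 4 or 5 (adjusted p = 0.0714). A barcode had to reach fixed UMI minimums and the IL10/2-Trikine neutrophils were shallower. In an alternative, barcodes with at least 1000 UMIs were thinned to that number before the rule was applied. The IL10/2-Trikine share was then 0.344 times that of PBS (exact permutation, adjusted p = 0.0952, and 0.312 times without thinning). It was 0.164 times that of mono-IL10 (exact permutation, adjusted p = 0.0238, and 0.187 times without thinning). Shallower barcodes were left out, and most of them came from the IL10/2-Trikine library, with 1186 singlets and 47 neutrophils. The PBS library lost 561 and 26, and the mono-IL10 library 429 and 19. The thinned shares therefore do not cover the shallowest cells. Without PBS mouse 2 the difference from PBS was -0.844 points (exact permutation, adjusted p = 0.0595).

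Tumor epithelial cells were 7.91% to 19.2% of singlets in PBS mice, 8.03% to 35.0% in mono-IL10 mice and 12.7% to 34.2% in IL10/2-Trikine mice, and their part in the shares was not tested. Among singlets with at least 1 UMI of Ptprc, which encodes CD45, neutrophils were 1.29%, 5.46%, 1.51%, 2.33% and 2.86% in PBS mice 1 to 5. They were 4.92%, 8.68%, 1.97%, 2.02% and 5.31% in mono-IL10 mice and 1.58%, 2.86%, 0.288%, 0.323% and 1.18% in IL10/2-Trikine mice. On this scale 3 of the 5 IL10/2-Trikine mice lay below every PBS mouse. The means were 1.25% ± 1.06 (SD, n = 5), 2.69% ± 1.67 (n = 5) and 4.58% ± 2.77 (n = 5) in IL10/2-Trikine, PBS and mono-IL10, and no difference passed the threshold (exact permutation, adjusted p between 0.119 and 0.278).

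**Figure D3:**
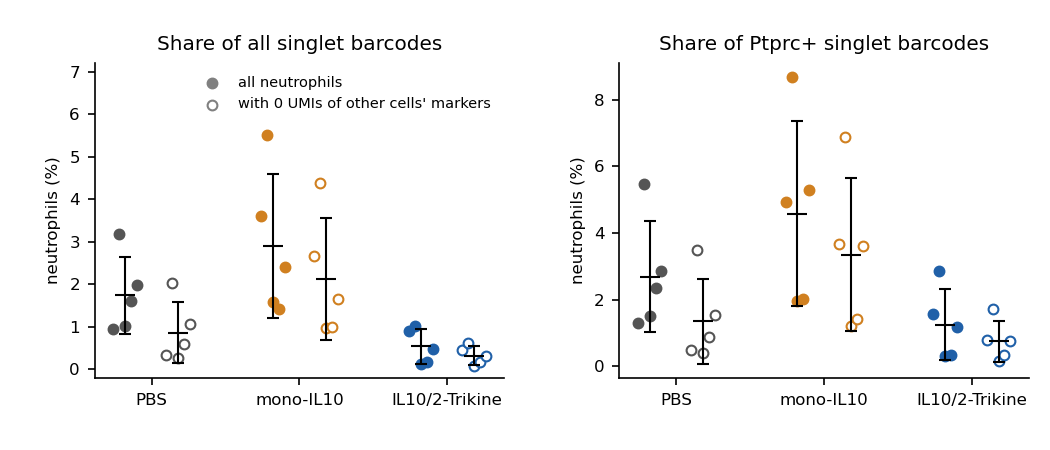
Neutrophils as a percent of all singlet barcodes (left) and of Ptprc+ singlet barcodes (right), with 1 point per mouse, filled for all neutrophils and open for those with 0 UMIs of the 31 marker genes. Horizontal bars are means and error bars are SD over 5 mice. On the left the filled IL10/2-Trikine points lie between 0.131% and 1.02%, below all mono-IL10 points.

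Within the neutrophils, 6 states, of which 5 are given here, were scored after each cell had been thinned to 1000 UMIs, which left out 26 PBS, 19 mono-IL10 and 47 IL10/2-Trikine cells that were shallower. Of the 18 tests of these shares, 0 passed an adjusted p of 0.05 (smallest adjusted p 0.179, exact permutation), and 4 had an unadjusted p under 0.05. No single test could have passed alone, since the smallest p of 0.00794 (5 against 5 mice) or 0.0179 (3 against 5) would adjust to 0.143 or 0.321 over 18 tests. The share with Cd274, which encodes the checkpoint ligand PD-L1, was 28.6%, 33.2%, 27.3%, 33.8% and 41.5% in PBS mice 1 to 5 and 50.3%, 37.0%, 41.9%, 36.8% and 42.9% in mono-IL10 mice 1 to 5. In IL10/2-Trikine mice 1, 2 and 5 it was 36.4%, 44.4% and 20%, across both ranges. Among PBS mice only mouse 5 reached into the mono-IL10 range, and the means were 32.9% ± 5.61 (SD, n = 5) and 41.8% ± 5.49 (n = 5; exact permutation p = 0.0397, adjusted p = 0.179). Without thinning, the shares overlapped widely, at 53.1% to 67.1% in PBS, 53.1% to 79.5% in mono-IL10 and 46.7% to 54.2% in IL10/2-Trikine. In tumor epithelial cells thinned alike, 0.897% to 1.31% had Cd274.

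Il1b was found in 98.1% ± 1.34 (SD, n = 5) of PBS, 97.9% ± 1.06 (n = 5) of mono-IL10 and 89.8% ± 8.86 (n = 3) of IL10/2-Trikine neutrophils, with the IL10/2-Trikine mice at 92.2%, 97.2% and 80%. At least 1 UMI of the interferon-induced genes Isg15, Ifit1, Ifit3 and Rsad2 was found in 30.8% ± 10.3 (n = 5), 35.9% ± 6.07 (n = 5) and 26.7% ± 1.79 (n = 3) of the cells, against 4.30% to 5.18% of tumor cells. The granule genes Camp, Ngp and Ltf were present in 2.92% ± 1.81 (n = 5), 5.02% ± 3.35 (n = 5) and 4.45% ± 2.00 (n = 3), and Siglecf in 6.33% ± 3.68 (n = 5), 8.87% ± 3.54 (n = 5) and 3.09% ± 3.26 (n = 3). The Siglecf value of IL10/2-Trikine mouse 5 was 0% of only 15 cells. The low IL10/2-Trikine share of Siglecf was not kept at another depth. With thinning to 500 UMIs, it was 7.78%, 7.29% and 12% in IL10/2-Trikine mice 1, 2 and 5. PBS mice then lay between 0% and 10.96%, and mono-IL10 mice between 3.23% and 6.76%.

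Mono-IL10 against PBS asked what the monomeric cytokine alone changed in tumor neutrophils. In summed counts per mouse, 127 of 4504 genes tested differed at an adjusted p of 0.05 (2.82%), of which 49 were higher (1.09%) and 78 lower (1.73%) with mono-IL10. Without S100a8 and S100a9, which had chosen the cells, 125 genes were called, 47 of them higher. The inflammatory chemokines Ccl3 and Ccl4 and the interleukin-1 antagonist Il1rn rose, whereas Lyz2, Mmp12, Cybb and a set of dendritic cell genes fell. With the marker-free neutrophils, 0 of 1691 genes were called by edgeR (222 at an unadjusted p under 0.05), while thinning to 600 UMIs called 46 of 1049. The marker-free fit lacked PBS mouse 3, without which 46 genes were called over all neutrophils. Of these 125 genes, the 70 that could be tested in the marker-free cells (41 of the higher and 29 of the lower) all kept their direction there. The marker-free cells are part of the neutrophils in which these genes were called, so the kept direction is not independent support. The count rested on single mice, with 23 genes called without PBS mouse 4 and 336 without PBS mouse 2.

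Ccl3, a chemokine that attracts monocytes and T cells, was at 877, 1585, 650, 690 and 872 CPM in PBS mice 1 to 5 and at 2654, 3205, 2124, 1481 and 2609 CPM in mono-IL10 mice 1 to 5. PBS mouse 2 overlapped the lowest mono-IL10 mouse. The fitted log2 fold change was 1.42 ± 0.29 (SE, adjusted p = 0.021), and it was 1.25 (adjusted p = 0.151) in the marker-free and 1.13 (adjusted p = 0.00779) in the thinned cells. Ccl4, its close relative, was at 1004, 1506, 696, 1063 and 842 CPM in PBS and at 3254, 3835, 1604, 1850 and 3489 CPM in mono-IL10, with no overlap. Its log2 fold change was 1.52 ± 0.33 (adjusted p = 0.0245), 1.16 (adjusted p = 0.207) in marker-free and 1.08 (adjusted p = 0.0197) in thinned cells. In cells under 1500 genes Ccl3 had 0.90 (adjusted p = 0.0612) and Ccl4 0.91 (adjusted p = 0.232). With 1 of the 13 mice left out at a time, Ccl3 was called in 8 of 13 fits (1.29 to 1.74) and Ccl4 in 8 (1.38 to 1.75), and neither without PBS mouse 1, 3 or 4 or mono-IL10 mouse 1 or 2.

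Il1rn, which encodes the interleukin-1 receptor antagonist and is a known target of interleukin-10, was at 1212, 1774, 1057, 1491 and 2014 CPM in PBS and at 2609, 3044, 2298, 2603 and 2690 CPM in mono-IL10. The groups did not overlap, and the log2 fold change was 0.87 ± 0.18 (adjusted p = 0.0206), 0.63 (adjusted p = 0.177) in marker-free and 0.77 (adjusted p = 0.0121) in thinned cells. Siglece, an inhibitory sialic acid receptor, rose from 40.4, 82.3, 65.7, 35.9 and 64.4 CPM to 147, 171, 147, 100 and 128 CPM, again without overlap. Its log2 fold change was 1.30 ± 0.24 (adjusted p = 0.0128) and was 1.10 (adjusted p = 0.177) in the marker-free, 1.19 (adjusted p = 0.0313) in the under-1500-gene and 1.27 (adjusted p = 0.0833) in the thinned cells. Siglece was called in all 13 fits that left out 1 mouse, and Il1rn in 9, not without PBS mouse 1 or 4 or mono-IL10 mouse 1 or 2 (0.80 to 0.89).

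**Figure D4:**
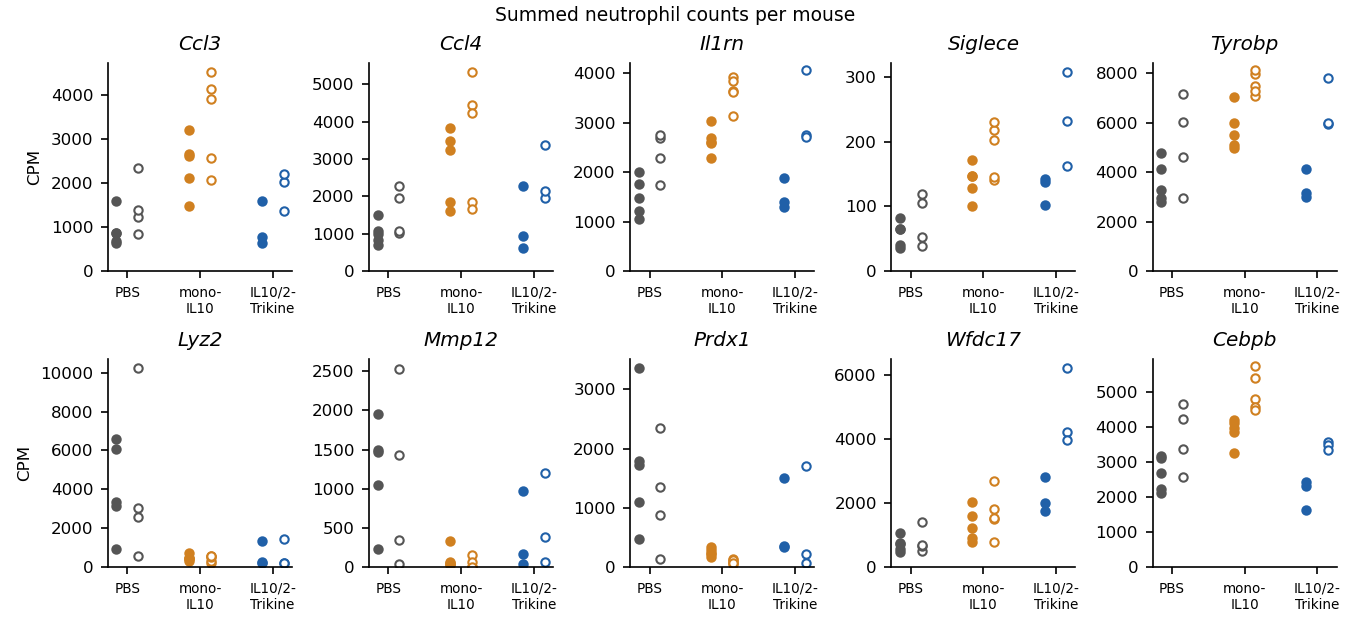
CPM of 10 genes in the summed neutrophil counts of each mouse, filled for all neutrophils and open for the marker-free ones (mice with at least 10 such cells). Marker-free cells had 0 UMIs of the 31 marker genes, which include no macrophage or tumor epithelial marker. Axes start at 0. Il1rn and Siglece show no overlap between PBS and mono-IL10 in filled points, Lyz2 and Prdx1 are lower in every mono-IL10 mouse than in any PBS mouse, and Wfdc17 is higher in every IL10/2-Trikine mouse (1760 to 2824 CPM) than in any PBS mouse.

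The remaining genes at the top of the rise were Car4 (log2 fold change 2.77 ± 0.53), a membrane carbonic anhydrase, P2ry13 (1.88 ± 0.40), a nucleotide receptor, Gm10634 (1.79 ± 0.46) and E230032D23Rik (1.35 ± 0.27), both uncharacterized, and Cd177 (1.47 ± 0.32), a surface glycoprotein of neutrophils. Igfbp6 (1.45 ± 0.36), which binds insulin-like growth factors, and Gpr84 (1.41 ± 0.32), a receptor for medium-chain fatty acids, were the others. With 1 mouse left out at a time, Car4 was called in 12 of 13 fits, E230032D23Rik in 10, Cd177 in 8 and Gpr84 in 7. Igfbp6 was called in 5 (1.29 to 2.10), Gm10634 in 4, and P2ry13 in 7 of the 11 fits that tested it. Cd177 (1.02), Igfbp6 (0.97), Gpr84 (0.90) and E230032D23Rik (0.78) did not pass in the marker-free cells (adjusted p between 0.215 and 0.342), and Igfbp6 had 0.76 (adjusted p = 0.229) in the thinned cells. Car4 was measured on few counts, between 0 and 25.8 CPM in PBS and between 30.6 and 137 CPM in mono-IL10.

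Of the 78 lower genes, 12 were no lower in neutrophils than in macrophages and tumor cells, and the falls named here are the largest of those, besides members of the lists. That level is a mean over all mice, and a gene could meet it through the groups in which it was high. Mmp12 and Ccr7 did so, since in mono-IL10 neutrophils they lay below the macrophage means of 472 and 39.4 CPM. Dcstamp, Ass1, Mob3b and Kdm4a had means of 108, 67.9, 33.5 and 33.4 CPM over all mice. Macrophages had 100, 34.8, 31.6 and 29.3 CPM, and the fitted falls put the mono-IL10 neutrophils below these values. Lpl and Ccl22 had means of 91.7 and 59.9 CPM over all mice, against 23.2 and 14.0 CPM in macrophages. Fscn1 had 48.8 CPM, against 18.3 CPM in tumor epithelial cells. Their fitted falls also put the mono-IL10 neutrophils below these levels of the other classes. Ccl17 was at 99.2 CPM in mono-IL10 mouse 1 and at 0 to 5.57 CPM in the other mono-IL10 mice, against 52.9 CPM in macrophages. Lyz2, lysozyme, was at 6057, 902, 6604, 3145 and 3359 CPM in PBS mice 1 to 5 and at 455, 295, 728, 390 and 479 CPM in mono-IL10 mice 1 to 5, and at 3932 CPM in macrophages. The groups did not overlap (log2 fold change -3.05 ± 0.53, adjusted p = 0.0108), with -3.30 (adjusted p = 0.0689) in marker-free and -2.76 (adjusted p = 0.000235) in thinned cells, and -1.38 (adjusted p = 0.0222) in those under 1500 genes. Mmp12, macrophage elastase, was at 1488, 235, 1956, 1472 and 1044 CPM in PBS and 43.2, 28.5, 329, 63.2 and 50.1 CPM in mono-IL10. PBS mouse 2, the mouse with the smallest part of group 3 among PBS mice, was the only PBS mouse inside the mono-IL10 range (log2 fold change -3.87 ± 0.76, adjusted p = 0.0184). Mmp12 was at -5.58 (adjusted p = 0.0689) in marker-free cells, -1.56 (adjusted p = 0.552) in those under 1500 genes and -3.31 (adjusted p = 0.00789) in thinned cells. Lyz2 was called in all 13 fits that left out 1 mouse, and Mmp12 in 10 (not without PBS mouse 4, -3.81, or mono-IL10 mouse 1, -3.61, or 2, -3.58), with -4.71 without mono-IL10 mouse 3.

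Lpl (lipoprotein lipase, -4.06 ± 0.95), Dcstamp (cell fusion in osteoclasts and macrophages, -3.20 ± 0.43), Ass1 (arginine synthesis, -3.06 ± 0.53), Mob3b (-2.03 ± 0.45) and Kdm4a (a histone demethylase, -1.84 ± 0.39) fell as well. Dcstamp had -3.55 (adjusted p = 0.178) in the marker-free cells, where the others could not be tested. So did Ccr7 (-3.51 ± 0.61), Ccl17 (-3.48 ± 0.85), Ccl22 (-3.12 ± 0.59) and Fscn1 (-2.73 ± 0.59), a receptor, 2 chemokines and an actin bundler of mature dendritic cells. Single mice moved these values: without mono-IL10 mouse 1, Ccl17 was at -6.80 and Ccr7 at -4.49, without mono-IL10 mouse 2 Ccl22 was at -3.83, and without mono-IL10 mouse 5 Fscn1 was at -3.34. Ccl17 was called in 7 of the 13 fits that left out 1 mouse, Fscn1 in 9, Ccl22 in 12 and Ccr7 in all 13. The calls were lost without PBS mouse 1 or 4 or mono-IL10 mouse 2, 3, 4 or 5 for Ccl17 (-3.38 to -3.09), without PBS mouse 3 or 4 or mono-IL10 mouse 1 or 2 for Fscn1 (-2.65 to -2.30), and without PBS mouse 4 for Ccl22 (-2.92). Ccr7 was at 28.8 to 240 CPM in PBS and at 0 to 22.4 CPM in mono-IL10, and in marker-free cells it was at 0 by construction. Summed over 8 dendritic cell markers, the neutrophils held 110 to 406 CPM in PBS and 8.7 to 36.8 CPM in mono-IL10, with Siglech at 0 in PBS and Cd209a at 0 in mono-IL10. Summed macrophage markers ran from 921 to 3444 CPM in PBS and from 723 to 4136 CPM in mono-IL10, and 8 stromal and endothelial markers from 73.0 to 8636 CPM and from 139 to 13045 CPM. The part of these cells, of group 3 and of depth in the falls was not tested.

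By function, the lists are read against the 2.82% of all genes that were called in this comparison, and in the marker-free cells each of them had 0 called. Of the neutrophil identity list, 13 genes that the rule did not use were tested. All 13 had a positive log2 fold change, with a median of 0.68 against -0.02 over all genes tested, and 2 of the 13 passed the test, namely Mmp9 (0.77), a gelatinase of the tertiary granules, and Mxd1 (0.86), a repressor of Myc targets. Mmp9 and Mxd1 were each called in 7 of the 13 fits that left out 1 mouse. In the marker-free cells 12 of the 13 identity genes were positive with a median of 0.27, and in the thinned cells 11 of 13 with a median of 0.46. Cxcr2 had a log2 fold change of 0.76 (adjusted p = 0.0873) and Retnlg, a resistin-like hormone of neutrophils, 0.03 (adjusted p = 0.995). Of the genes that chose the cells, as a description, Csf3r was at 496, 861, 433, 594 and 773 CPM in PBS and at 844, 1174, 702, 790 and 997 CPM in mono-IL10. S100a8 was at 5578 to 11296 CPM and 9284 to 17378 CPM, and S100a9 at 7505 to 12800 CPM and 10644 to 23001 CPM, so that the groups overlapped for all of them.

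Among 8 granule and maturation genes tested, Mmp9 and Cd177 rose and Lyz2 fell. Of 17 cytokine and chemokine genes, Il1rn, Ccl3 and Ccl4 rose and Cxcl16 (-1.13) fell, with a median of 0.45. Cxcl16 had a mean of 129 CPM in neutrophils against 560 CPM in macrophages. It was called in 8 of the 13 fits that left out 1 mouse. Il1b (0.45, adjusted p = 0.218), Cxcl2 (0.78, adjusted p = 0.108), Il1a (1.08, adjusted p = 0.0534) and Tnf (1.03, adjusted p = 0.108) had positive values that did not pass. Of 20 interferon-stimulated genes, Oasl2 (0.89), an antiviral RNA sensor relative, Irf1 (1.06), a transcription factor, and Slfn1 (1.09) rose and none fell, with 17 of 20 positive and a median of 0.81. With 1 mouse left out at a time, Oasl2 was called in 8 of 13 fits, and Irf1 and Slfn1 in 7 each. Isg15, a ubiquitin-like protein, was at 1.04 (adjusted p = 0.0612).

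Of 17 growth factor and inflammatory receptors, Tlr4, the endotoxin receptor, rose (0.89 ± 0.20, adjusted p = 0.0267), and of 8 NADPH oxidase genes the catalytic subunit gene Cybb fell (-2.23 ± 0.41, adjusted p = 0.0129). Cybb was at 617, 177, 952, 525 and 301 CPM in PBS and 92.8, 85.6, 182, 94.8 and 86.3 CPM in mono-IL10, so that PBS mouse 2 lay just inside the mono-IL10 range. Its mean over all mice was 268 CPM in neutrophils, against 409.5 CPM in macrophages. Cybb had the same -2.23 (adjusted p = 0.152) in marker-free cells and -2.50 (adjusted p = 0.0196) in thinned cells, but -0.25 (adjusted p = 0.833) in those under 1500 genes, and Tlr4 had 0.54 (adjusted p = 0.387), 0.87 (adjusted p = 0.0287) and 0.49 (adjusted p = 0.286). Of 17 antigen presentation genes only Cd86 (-1.08), a costimulatory ligand, was called. It had a mean of 159 CPM in neutrophils against 522 CPM in macrophages. With 1 mouse left out at a time it was called in 6 of 13 fits. The MHC class II genes H2-Ab1, H2-Aa, H2-Eb1 and Cd74 had log2 fold changes of -1.28, -1.12, -1.11 and -1.14 (adjusted p between 0.0715 and 0.183). In the thinned cells the same 4 genes were called, at -2.38, -2.33, -2.08 and -1.85. No gene was called among 15 migration and adhesion receptors, 19 genes of the tumor-associated state, 14 survival genes, 16 Fc and complement receptors, 9 interleukin-2 and interleukin-15 genes or 12 dissociation and heat shock genes.

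Receptors for the treatments were looked at separately. Il10ra, the ligand-binding chain for interleukin-10, was at 127, 157, 144, 168 and 198 CPM in PBS, 227, 251, 191, 121 and 189 CPM in mono-IL10 and 101, 188 and 51.1 CPM in IL10/2-Trikine mice 1, 2 and 5. The groups overlapped and no comparison passed. Il10rb, the shared second chain, was at 72.2 to 107 CPM, 120 to 159 CPM and 51.1 to 81.1 CPM (adjusted p = 0.0553 for mono-IL10 against PBS). Il2rb, the chain that the second module of IL10/2-Trikine binds, was at 4.29 to 32.8 CPM in PBS, 0 to 47.4 CPM in mono-IL10 and 51.1 to 96.8 CPM in IL10/2-Trikine, and in the marker-free cells it was at 0 in all PBS and IL10/2-Trikine mice. Over the same neutrophils 12 summed T and NK cell markers were at 28.8 to 191 CPM in PBS, 46.4 to 327 CPM in mono-IL10 and 153 to 649 CPM in IL10/2-Trikine, with Cd3e and Ncr1 at 0 by the rule, and their part in Il2rb was not tested. Of 18 interleukin-10 receptor and target genes, Il1rn rose and Etv3 (-1.69), a repressor, and Tnip3 (-2.06), an inhibitor of NF-κB, fell with mono-IL10. Etv3 and Tnip3 had means of 55.1 and 36.7 CPM in neutrophils, against 82.4 and 70.7 CPM in macrophages. In tumor epithelial cells Tnip3 was at 108 CPM. They were called in 10 and 9 of the 13 fits that left out 1 mouse.

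IL10/2-Trikine against PBS asked what the extended cytokine changed. It called 10 of 4504 genes (0.222%; 587 at an unadjusted p under 0.05), 6 higher (0.133%) and 4 lower (0.0888%), over 3 mice against 5. Only Cdkn1a met the rule for named genes, and the other 9 are named after their values were seen. Cdkn1a, the cell cycle inhibitor p21, was at 1402, 1564, 1490, 1143 and 1465 CPM in PBS mice 1 to 5 and at 815, 854 and 562 CPM in IL10/2-Trikine mice 1, 2 and 5. The groups did not overlap (log2 fold change -0.95 ± 0.19, adjusted p = 0.0475), and the value was -0.72 (adjusted p = 0.521) in marker-free and -0.48 (adjusted p = 0.518) in thinned cells. With 1 mouse left out at a time it was called in 2 of 13 fits, those without mono-IL10 mouse 3 or 5 (-1.07 to -0.80 in all, adjusted p up to 0.241). Thbs1 (-0.87), an adhesive matrix glycoprotein, Malt1 (-1.08), an NF-κB activator, and Bach2 (-2.41), a transcriptional repressor, were the others that were lower. Among the lists by function 0 genes were called in this comparison, and the medians were 0.07 for the 13 neutrophil identity genes that the rule did not use, -0.43 for the 17 cytokines and chemokines and 0.37 for the 20 interferon-stimulated genes. In the marker-free cells these medians were 0.04, -0.01 (16 genes) and 0.62 (9 genes).

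Wfdc17, a small antiprotease-like protein of activated myeloid cells, was at 565, 1050, 762, 707 and 455 CPM in PBS and 1760, 2824 and 2010 CPM in IL10/2-Trikine, with mono-IL10 mice between 780 and 2044 CPM. The log2 fold change against PBS was 1.58 ± 0.31 (adjusted p = 0.0475), and it was larger in the marker-free (2.45, adjusted p = 0.00539) and thinned cells (1.96, adjusted p = 0.000219). It was the only gene of this comparison called in each of these 2 alternatives. Over all neutrophils, leaving out 1 mouse kept the call in 4 of 13 fits (1.34 to 1.80, adjusted p up to 0.171), those without PBS mouse 2 or mono-IL10 mouse 1, 3 or 4. In macrophages, fitted over all 15 mice, Wfdc17 was also higher, by 1.04 on the log2 scale. The difference of the effects, from a joint fit of both cell types, was 0.38 (adjusted p = 0.84).

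Clu, Cdkn2a, Cp and Sox4 were higher in IL10/2-Trikine neutrophils and had their highest means in tumor epithelial cells (3125, 895, 1288 and 329 CPM). Clu was at 6.57 to 67.1 CPM in PBS neutrophils and 235, 683 and 1550 CPM in IL10/2-Trikine ones. In the marker-free cells the ranges overlapped, with 0 to 116 CPM in PBS and 29.0 to 148 CPM in IL10/2-Trikine. The value of 0 is from PBS mouse 3, with only 6 such cells, and the next lowest PBS mouse was at 23.4 CPM. Xist, the RNA of the inactive X chromosome, was at 448 to 637 CPM in PBS, 432 to 490 CPM in mono-IL10 and 1172, 1446 and 1670 CPM in IL10/2-Trikine neutrophils. It was at 203 to 482 CPM in PBS (203 CPM in mouse 3, with 6 cells), 213 to 421 CPM in mono-IL10 and 492 to 660 CPM in IL10/2-Trikine in the marker-free cells, where IL10/2-Trikine did not overlap either. The labels do not give the sex of the mice in each group, and 4 genes of the Y chromosome had 2 UMIs in all neutrophils together. Xist moved the same way in the other classes of that library, with 796 to 861 CPM against 1001 to 1205 CPM in macrophages and 3286 to 3531 CPM against 5441 to 6158 CPM in tumor epithelial cells. Summed over 10 tumor epithelial markers, the neutrophils held 86.5 to 197 CPM in PBS and 539 to 1925 CPM in IL10/2-Trikine. The part of tumor cell RNA in these genes was not tested.

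IL10/2-Trikine against mono-IL10 asked what the added receptor module changed. It called 26 of 4504 genes (0.577%), with 9 higher (0.2%) and 17 lower (0.377%), and 1 without IL10/2-Trikine mouse 5. The balance of directions turned with the cells kept. It was 12 higher and 50 lower at a minimum of 1000 genes (with 2 IL10/2-Trikine mice), but 57 and 41 in cells under 1500 genes, 129 and 102 without cells over 3 times their library's median UMIs, and 15 and 13 in thinned cells. The lower genes named were Fgl2, Cdkn1a, H3f3b, Card19, Srgn, Smox, Basp1, Ifrd1, Cebpb and Tiparp, with log2 fold changes from -1.19 to -0.96. Of the 17 lower genes, 16 kept their sign in the marker-free cells, where 0 of 1691 genes were called (132 at an unadjusted p under 0.05), and all 17 kept it in the thinned cells, where 8 were called again. Both alternatives use cells in which these genes had been called, so the kept signs are not independent support. In macrophages of the same libraries 14 of the 17 were also lower and called, beside 1434 of all 13017 genes tested there.

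Srgn, the proteoglycan of granules, was at 11833, 13564, 11584, 9738 and 11584 CPM in mono-IL10 mice 1 to 5 and at 5466, 7134 and 4941 CPM in IL10/2-Trikine mice 1, 2 and 5, with PBS mice between 5515 and 9957 CPM. Mono-IL10 and IL10/2-Trikine did not overlap (log2 fold change -1.10 ± 0.21, adjusted p = 0.0331), and the value was -0.59 (adjusted p = 0.441) in marker-free, -0.74 (adjusted p = 0.00315) in under-1500-gene and -0.76 (adjusted p = 0.025) in thinned cells. Cebpb, a transcription factor of emergency granulocyte production, was at 4182, 4116, 3954, 3241 and 3843 CPM in mono-IL10, 2299, 2414 and 1636 CPM in IL10/2-Trikine and 2117 to 3153 CPM in PBS. Its log2 fold change was -0.97 ± 0.19 (adjusted p = 0.0332), with -0.59 (adjusted p = 0.429) in marker-free and -0.84 (adjusted p = 0.00719) in thinned cells. For both genes the IL10/2-Trikine values lay near those of PBS, and a mono-IL10 rise over PBS was called as well (Srgn 0.76, adjusted p = 0.0298; Cebpb 0.60, adjusted p = 0.0495), so the comparisons share the mono-IL10 mice. Each was called in 8 of 13 fits that left out 1 mouse, not without mono-IL10 mouse 1, 2 or 3 or IL10/2-Trikine mouse 1 or 5 (Srgn -1.12 to -0.998, Cebpb -1.06 to -0.82).

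By list, negative values prevailed in several functions, against a median of 0.03 over all genes tested. They were found for 12 of 13 identity genes that the rule did not use (median -0.70), 14 of 15 migration genes (-0.45), 17 of 19 tumor-associated genes (-0.57) and all 17 growth factor and inflammatory receptor genes (-0.65), of which Cd14, the coreceptor for endotoxin, was called. In the marker-free cells the medians were -0.23 for identity (3 of 13 positive), 0.01 for migration (9 of 15 positive), -0.03 for tumor-associated (8 of 19 positive) and -0.26 for receptor genes (4 of 16 positive). Cd14 was at 3219, 3018, 2835, 2429 and 2679 CPM in mono-IL10 and 1849, 1867 and 1107 CPM in IL10/2-Trikine, without overlap (-0.91 ± 0.19, adjusted p = 0.0395; -0.61 with adjusted p = 0.441 in marker-free cells), and it was called in 6 of 13 fits that left out 1 mouse (-1.05 to -0.72), not without PBS mouse 2, mono-IL10 mouse 1, 2, 3 or 5 or IL10/2-Trikine mouse 1 or 5. Of 16 Fc and complement receptors, Fcer1g, a signaling chain, was called (-0.95), and 14 were negative, whereas 8 of 11 were positive in the marker-free cells. The 17 cytokine and chemokine genes had a median of -0.86 with 0 called (-0.32 in marker-free cells, 2 of 16 positive), Ccl3 at -1.37 (adjusted p = 0.0753) and Il1b at -0.87 (adjusted p = 0.0791). Of 20 interferon-stimulated genes 18 were negative with 0 called (4 of 9 positive in marker-free cells), Isg15 at -1.67 (adjusted p = 0.0515). With neutrophils under 1500 genes, Ccl3 (-0.98), Il1b (-0.63), Cxcl2 (-0.68) and Isg15 (-1.46) were called lower, at adjusted p of 0.0421, 0.0287, 0.0439 and 0.0148, and the chemokine gene Ccl9 higher (1.79, adjusted p = 0.0431). The MHC class II genes H2-Ab1, H2-Aa, H2-Eb1 and Cd74 were also called higher there (1.64 to 3.10, adjusted p between 0.000623 and 0.0124), although they had -0.53 to -0.26 with 0 called over all neutrophils. Higher in IL10/2-Trikine by the naming rule were Ccr7 (3.85 ± 0.71) and Ccl22 (3.57 ± 0.68), with Ccr7 at 130, 137 and 307 CPM against 0 to 22.4 CPM. Ccr7 met the level condition of that rule through the groups in which it was high, as its mono-IL10 values lay below the macrophage mean of 39.4 CPM. Ccl22 did so too, with a mean of 59.9 CPM over all mice. Its fitted changes put the mono-IL10 neutrophils below the macrophage mean of 14.0 CPM. Ccr7 and Ccl22 were each called in 9 of 13 fits that left out 1 mouse, at 3.49 to 4.85 and 2.84 to 4.27, Ccr7 not without mono-IL10 mouse 2 or 3 or IL10/2-Trikine mouse 1 or 5 and Ccl22 not without mono-IL10 mouse 1 or 3 or IL10/2-Trikine mouse 2 or 5. The 8 summed dendritic cell markers, of which Ccr7 is one, were at 239 to 409 CPM in these neutrophils against 8.7 to 36.8 CPM in mono-IL10, and their part in this result was not tested.

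**Figure D5:**
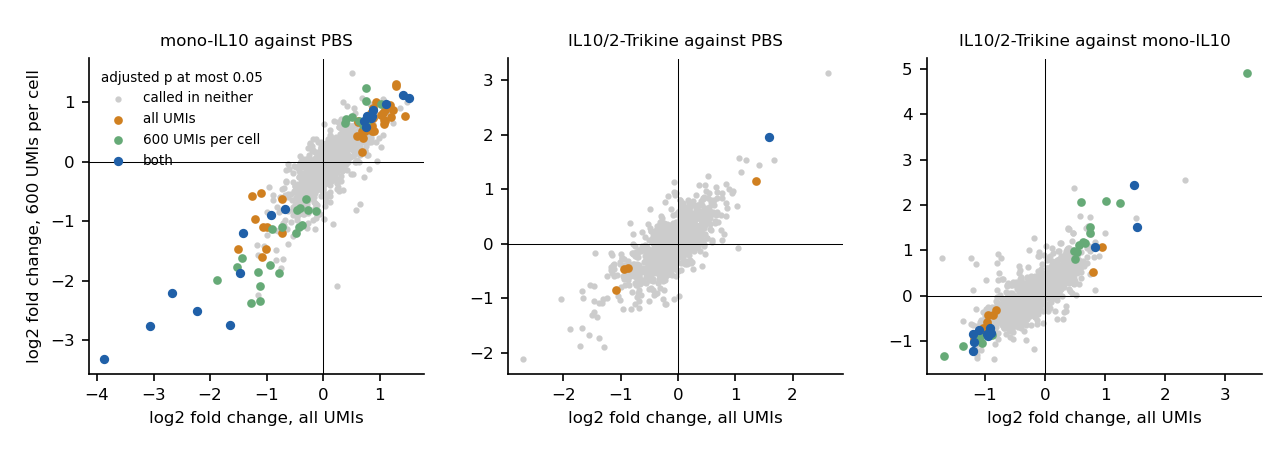
Log2 fold change of genes in all neutrophil UMIs (horizontal axis) against that after thinning each cell to 600 UMIs (vertical axis) in the 3 comparisons, 1 point per gene tested in both; colors mark genes with adjusted p at most 0.05 in both, in one, or in neither. Most called genes lie on the same side of 0 on both axes, and Wfdc17 is the gene called in both for IL10/2-Trikine against PBS.

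Macrophages from the same mice served to show which changes differed between the cell types. An interaction of treatment and cell type, fitted with the mouse as a block, was called for 213 of 12531 genes in mono-IL10 against PBS (1.7%), for 8 in IL10/2-Trikine against PBS (0.0638%) and for 5 in IL10/2-Trikine against mono-IL10 (0.0399%). It came from a joint fit over mice with at least 10 cells of both types. Fold changes within macrophages came from a separate fit over all 15 mice. A difference of effects thus need not equal the difference of the separate fold changes. Ccl3 differed by 1.94 on the log2 scale (adjusted p = 0.000323), with 1.42 in neutrophils and -0.45 in macrophages, and Siglece by 1.95 (adjusted p = 0.000727), with 1.30 and -0.55. Il1rn was called higher in both cell types, by 0.87 in neutrophils and 0.63 in macrophages. Lyz2 and Mmp12 were called lower in both, by -3.05 against -0.81 and by -3.87 against -0.51, and their differences of -1.96 and -3.26 were called. The neutrophils here included group 3, whose part in these differences was not tested. Of the 49 genes that rose (S100a8 and S100a9 included) and the 78 that fell with mono-IL10 in neutrophils, 24 and 33 were called the same way in macrophages, and 4 and 12 the opposite way. Among all 13017 genes tested in macrophages, 1560 were called higher and 1550 lower in this comparison.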

How the data were processed

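The authors deposited UMI counts per gene and per hashtag antibody for 3 libraries, written by Cell Ranger 9.0.1 per the file headers, with GRCm39 as the genome per the labels; the submitters' processing notes also name Seurat 5.1.0 and DESeq2 1.46.0. Counts were used as deposited (34187 genes, 5 hashtags). The members and the gene lists were chosen with earlier results of these data known. Macrophages (C1qa+C1qb+C1qc) and tumor epithelial cells (Krt8+Krt18) had at least 10 UMIs of their markers. Macrophages also had under 10 UMIs of S100a8 plus S100a9, at most 3 of Krt8 plus Krt18 and none of Cd3e or Ncr1, and tumor epithelial cells had none of Ptprc. Neutrophil counts were summed per mouse and tested with edgeR 4.0.16 in R 4.3.3 (quasi-likelihood, TMM, filterByExpr, Benjamini-Hochberg over all genes tested) in mice with at least 10 neutrophils. Shares were tested over mice with exact two-sided permutation tests (scipy 1.17.1). The fits were tested on simulated data. Groups 1 to 4 came from k-means on 15 principal components of 1500 variable genes, after the mean of each library had been removed per gene (scikit-learn 1.9.0). In each comparison the named genes were the 10 largest changes each way that passed an adjusted p of 0.05 and were no lower in mean CPM than in macrophages and tumor cells, besides members of the lists. Results for 1 gene are not reported here. Alternatives included DESeq2 1.42.0. A table of authors' T and NK cell annotations was not used, as it lists no neutrophils. Mice of different treatments shared only a hashtag number.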

Additional observations from a re-analysis of the deposited data

Results flagged for a closer look

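In 76 groups of 5 mice examined, 6 held a mouse that stood apart from the others by Dixon's criterion, where chance alone would give about 1 in 20. PBS mouse 3 had Siglecf in 0% of its thinned neutrophils, against 6.76% to 9.23% in the other PBS mice, but it had only 22 such cells. Without thinning it was at 4.35%, against 6.67% to 20.5% in the others. PBS mouse 2 had the highest Ccl3 (1585 CPM, others 650 to 877 CPM) and Gpr84 (117 CPM, others 39.4 to 57.7 CPM). Among mono-IL10 mice, mouse 1 had 99.2 CPM of Ccl17 (others 0 to 5.57 CPM), mouse 3 had 329 CPM of Mmp12 (others 28.5 to 63.2 CPM) and mouse 4 had 443 CPM of Smox (others 601 to 659 CPM).

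The treatment effect differed between neutrophils and macrophages of the same mice for 12 named results. For mono-IL10 against PBS, the difference of effects on the log2 scale in the interaction fit (neutrophils against macrophages) was 1.67 for Ccl4, 2.295 for Cd177, 1.94 for Ccl3, 1.60 for Gpr84 and 1.95 for Siglece. It was -3.26 for Mmp12, -3.12 for Ccr7, -2.31 for Dcstamp, -2.02 for Ass1 and -1.64 for Kdm4a. For IL10/2-Trikine against mono-IL10 it was 4.08 for Ccr7 and 3.75 for Ccl22. Group 3 was part of the neutrophils in these fits, and Mmp12 was at 911 CPM there against 19.6 CPM in the other neutrophils. The part of group 3 in these differences was not tested.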

How the results depend on the processing

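The share of singlets in IL10/2-Trikine minus PBS no longer passed at a gene minimum of 200 (-1.10 points), a stricter hashtag rule (-0.56), 0 UMIs of other cells' markers (-0.53), under 1500 genes (-0.62) or thinning to 1000 UMIs (-0.63), and minus mono-IL10 at the gene minimum of 200 (-2.32) or the stricter hashtag rule (-1.12). Of Ptprc+ singlets, a gene minimum of 1000 brought IL10/2-Trikine past the threshold against PBS (-1.1963) and mono-IL10 (-1.61), as did S100a8 plus S100a9 of at least 20 UMIs with 2 of Csf3r against mono-IL10 (-2.22). Leaving out 1 mouse gave -1.40 to -0.844 against PBS (not passing without PBS mouse 2 or IL10/2-Trikine mouse 1, 3, 4 or 5) and -2.73 to -1.71 against mono-IL10 (not passing without IL10/2-Trikine mouse 1, 3, 4 or 5), and of Ptprc+ singlets -3.99 to -2.31 against mono-IL10 (passing without mono-IL10 mouse 3 or 4).

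Called genes, given in the order IL10/2-Trikine against PBS, mono-IL10 against PBS and IL10/2-Trikine against mono-IL10, numbered 10, 127 and 26. They became 303, 415 and 280 without the filter, 7, 121 and 7 with only the groups compared, 1, 85 and 62 at a gene minimum of 1000, and 0, 16 and 0 with 0 UMIs of the C1q and keratin genes. The higher S100a8, S100a9 and Csf3r minimum gave 2, 49 and 8, the stricter hashtag rule 0, 1 and 0, leaving out cells over 3 times their library's median UMIs 2, 479 and 231, and equal totals per mouse 22, 35 and 32. Alternatives added after the data were seen gave 1, 0 and 0 (0 UMIs of other cells' markers), 2, 21 and 98 (under 1500 genes), 1, 46 and 28 (600 UMIs per cell) and 6, 94 and 15 (every mouse with a neutrophil), and DESeq2 gave 56, 209 and 131. Leaving out 1 mouse gave 1 (PBS mouse 3 or 5 or IL10/2-Trikine mouse 5) to 24 (PBS mouse 2), 23 (PBS mouse 4) to 336 (PBS mouse 2), and 1 (IL10/2-Trikine mouse 5) to 61 (mono-IL10 mouse 4). Several of these fits also lost mice with under 10 cells, IL10/2-Trikine mouse 5 at the gene minimum of 1000 and the higher S100a8, S100a9 and Csf3r minimum, PBS mice 1 and 3 and mono-IL10 mouse 4 under the stricter hashtag rule, and PBS mouse 3 with 0 UMIs of other cells' markers and under 1500 genes. The counts thus rest on single mice and on which cells are kept; the cause was not tested.

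The difference between neutrophils and macrophages was called for 8, 213 and 5 genes with the mouse as a block and for 10, 358 and 17 without the block. Leaving out 1 mouse gave 5 to 53, 116 to 355 and 3 to 15. No paired analysis was possible because mice of different treatments shared only a hashtag number. Of 50 named gene results, 357 values under other settings kept the call and 235 did not, and of those leaving out 1 mouse 432 kept it and 210 did not, all with the same sign. Among other called genes, Thbs1 turned to 0.01 (adjusted p = 0.999) against mono-IL10 with 0 UMIs of other cells' markers, and Malt1 to 0.04 (adjusted p = 0.993) against PBS under 1500 genes. The comparison with monocytes could not be fitted.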
